A study of Mus musculus with 2 samples.

Results

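Low-RNA hepatocytes are hepatocyte barcodes that carried few transcripts in 2 single-cell libraries of tumour-bearing mouse liver. They were chosen by counts alone: at least 500 and under 5000 UMIs (molecular identifiers, each standing for 1 counted transcript), at least 200 genes, and at most 20% of UMIs from the mitochondrial genome. In addition, Alb, Apoa1, Apoa2, Apoc1, Ttr, Fabp1 and Trf together took at least 2% of UMIs, the numbered Mup genes under 1%, C1qa, C1qb and C1qc under 0.5%, and Mki67 and Top2a had under 3 UMIs. The rule found 225 of 6440 barcodes, 41 of 1366 in the GS-KO library and 184 of 5074 in the control library. The labels state that at least 7500 cells were sequenced.

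Both mice carried tumours and Glul f/f alleles, in which the gene for glutamine synthetase (GS) is flanked by sites for the Cre recombinase. The GS-KO mouse received AAV8-Cre and the control mouse AAV8-GFP, each 7 weeks before the liver was taken. The series concerns β-catenin-mutant hepatocellular carcinoma, and its labels do not mark which hepatocytes were tumour cells. Cells were taken from the supernatant of the first spin after collagenase perfusion, enriched with anti-F4/80 beads for macrophages and depleted of dead cells, so the hepatocytes are those that passed a macrophage enrichment. With 1 mouse and 1 library per group, mouse, library and Cre cannot be told apart, and no test of the groups was possible. All intervals are 95% intervals that cover counting error only.

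Hepatocytes divide their work along the liver lobule. Cells around the central vein, under β-catenin signalling, make glutamine with GS and hold much of the cytochrome P450 enzymes, whereas cells around the portal vein run the urea cycle and gluconeogenesis. Tumour cells with active β-catenin commonly carry the GS and P450 programme of the central zone.

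Low-RNA hepatocytes were 6.19% (4.48 to 8.31, exact Clopper-Pearson) of the 662 GS-KO barcodes that met the UMI, gene and mitochondrial limits, and 5.62% (4.85 to 6.46) of the 3275 control barcodes. Hepatocytes meeting every other limit with 5000 UMIs or more, called deep hepatocytes here, were 3.02% (1.85 to 4.63) in GS-KO, against 9.04% (8.08 to 10.1) in control, that is 20 and 296 cells. The bead enrichment and the limits of the rule can set these shares. The median depth of low-RNA hepatocytes was 1485 UMIs (549 to 4786) in GS-KO cells and 1575.5 (501 to 4979) in control cells, with medians of 696 and 724 genes. Their mitochondrial share had a median of 5.19% in GS-KO cells and 3.84% in control cells. All values below sum the UMIs of a cell set and scale them to CPM, the counts per 1000000 UMIs of the set, so they rest on 79213 UMIs in GS-KO and 353170 in control low-RNA hepatocytes, and on 307853 and 15340598 in deep ones. Deep cells differed in depth between the libraries, with a median of 11587.5 UMIs in GS-KO and 42674.5 in control. The deepest of the 20 deep GS-KO cells held 82324 of their 307853 UMIs, so a single cell weighs heavily in deep GS-KO values.

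**Figure D1:**
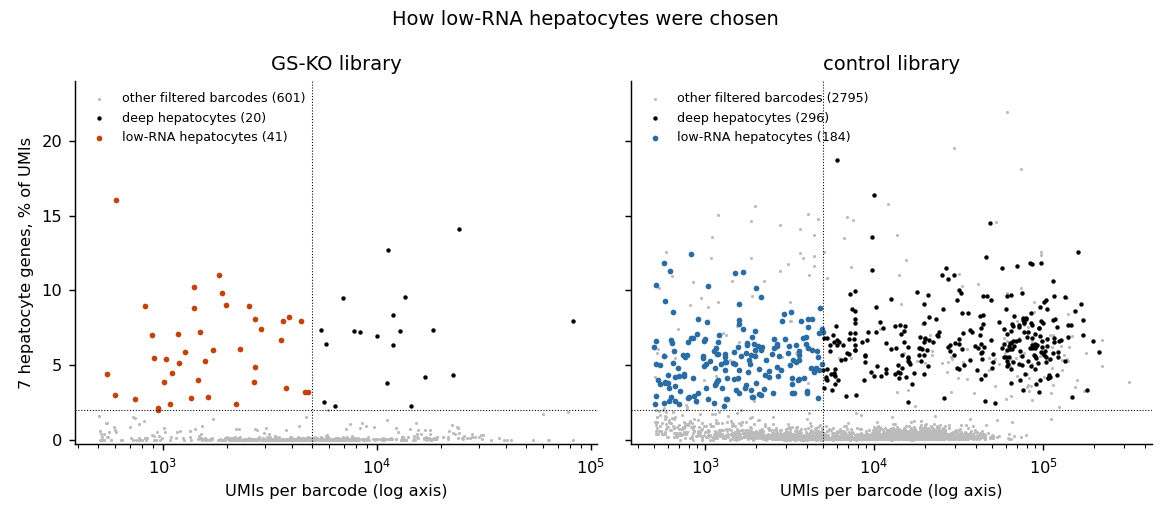
Each point is a barcode that met the gene and mitochondrial limits, by its UMIs (horizontal log axis) and the percent of its UMIs from the 7 hepatocyte genes (vertical axis), in the GS-KO (left) and control (right) library. Coloured points are the 41 and 184 low-RNA hepatocytes, black points the 20 and 296 deep hepatocytes, and dotted lines the limits of 5000 UMIs and 2%.

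The limits on UMIs and on the hepatocyte share did not fall in a gap between cells. From 4000 to under 5000 UMIs there were 3 GS-KO and 19 control cells, and from 5000 to under 6000 UMIs there were 3 and 20. Just inside the 2% limit, between 2 and 3%, were 7 GS-KO and 20 control cells. Just outside it, between 1 and 2%, were 6 and 31, of which 2 and 20 held at least 3 UMIs of another lineage's markers. The mitochondrial, Mup and C1q limits each had no GS-KO barcode just outside, against 10, 15 and 14 control barcodes.

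Hepatocyte genes outside the rule were also read, as a description. A list of 22 hepatocyte genes, such as the fibrinogens and haemopexin, summed to 24491 CPM in GS-KO and 21587 CPM in control low-RNA hepatocytes, against 29472 and 28176 CPM in deep hepatocytes. The same list had 81.4 and 682 CPM in B-cell barcodes of the same UMI range. B-cell barcodes of the GS-KO library thus carried less hepatocyte RNA. The 5 marker genes given with the label, Gnmt, Oat, Maoa, Gsta2 and Gstm3, summed to 11198 and 10884 CPM in low-RNA hepatocytes, against 213 and 527 CPM in the other barcodes of that UMI range. Those other barcodes are the ones that failed the rule, so this contrast too is a description and no independent check. In deep hepatocytes the 5 markers had 10008 and 8247 CPM, so they do not set low-RNA hepatocytes apart from deep ones.

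Markers of other cell types were present at low levels. The 11 macrophage genes, fixed without the C1q genes, summed to 783 CPM in GS-KO and 1099 CPM in control cells. A single cell held 48.4% of the GS-KO and 5.15% of the control macrophage UMIs. Of the low-RNA hepatocytes, 4 of 41 (9.76%) and 53 of 184 (28.8%) cells held 3 or more macrophage UMIs. Marco was at 0 in both libraries and Csf1r in GS-KO. All 8 B-cell and 10 T or NK genes were at 0 in GS-KO cells, which allows up to 46.6 CPM for each list by the exact interval, against 82.1 and 31.1 CPM in control cells. A single control cell held 44.8% of the 29 B-cell UMIs. Endothelial genes had 265 CPM in GS-KO, on 21 UMIs of which a single cell held 38.1%, against 90.6 CPM in control. Stellate or fibroblast genes had 126 CPM in GS-KO, on 10 UMIs of which a single cell held 30%, against 31.1 CPM in control. Erythroid genes had 151 and 73.6 CPM, neutrophil genes 63.1 and 113, cholangiocyte genes 0 and 17.0, and the 5 dendritic or plasma genes were at 0 in both. The neutrophil values rested on 5 UMIs in GS-KO and 40 in control, of which a single control cell held 75%. In all, 8 of 41 GS-KO and 55 of 184 control cells held 3 or more UMIs of 1 of these lineages other than erythroid. Scrublet, a doublet caller, marked 0 and 1 of the low-RNA hepatocytes. The libraries shared 1 barcode sequence, which was a low-RNA hepatocyte in 1 of them.

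The targeted gene was lower in GS-KO cells. Glul (ENSMUSG00000026473, chr1:153899944-153909723, GRCm38, plus strand, protein coding) had 17 UMIs in GS-KO low-RNA hepatocytes, or 215 CPM (125 to 344), against 1195 UMIs in control ones, or 3384 CPM (3194 to 3581). The GS-KO level was 15.8-fold lower (9.81 to 27.2). Per cell, GS-KO hepatocytes held a lowest, median and highest Glul count of 0, 0 and 5 UMIs, against 0, 4 and 55 in control hepatocytes. The ranges overlapped at the low end. Glul was seen in 12 of 41 GS-KO cells (29.3%, 16.1 to 45.5) and 149 of 184 control cells (81.0%, 74.6 to 86.4). Thinned to 500 UMIs per cell, which every cell reached, these shares were 12.2% and 66.3%, close to the 10% and 63.9% of deep hepatocytes. B-cell barcodes, set beside them as cells of another lineage, had 3.67% and 4.42% at that depth, with medians of 3646 and 3576 UMIs before thinning. Pooled, those B-cell barcodes had 30.5 and 80.2 CPM of Glul. Whether that Glul came from free RNA or from the B cells themselves was not tested. A count near the 3′ end does not show whether the floxed part was removed in a given cell.

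**Figure D2:**
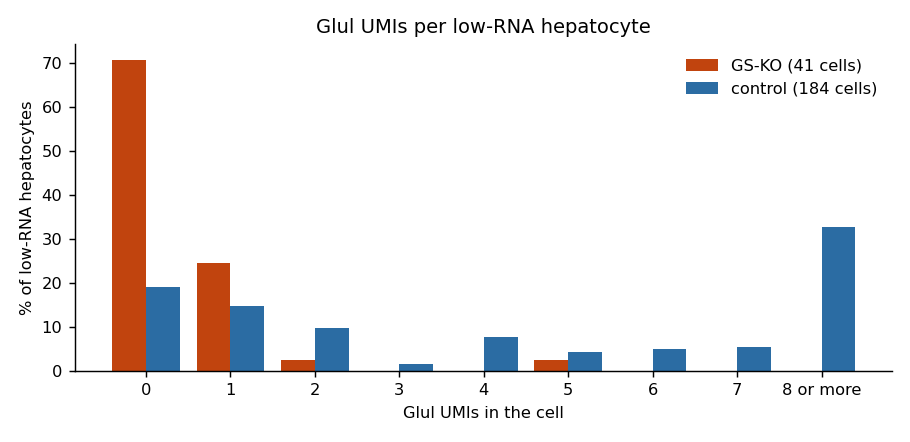
Bars give the percent of low-RNA hepatocytes (vertical axis) that held each number of Glul UMIs (horizontal axis) in the GS-KO (41 cells, left bar of each pair) and control library (184 cells, right bar). Most GS-KO cells held 0 and no GS-KO cell held over 5, whereas control cells reached 55.

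Control cells held Glul at a similar level at every depth, somewhat lower in the shallowest step. In steps that start at 500, 1000 and 2000 UMIs per cell, Glul had 0, 274 and 214 CPM in GS-KO and 2847, 3372 and 3482 CPM in control, followed by 266 and 3308 CPM in the step from 5000 UMIs and 95.5 and 3461 CPM in cells of 10000 UMIs or more. The 0 of the shallowest GS-KO cells rested on 9 cells and 7011 UMIs, with an upper bound of 526 CPM.

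The 5 marker genes did not move together between the libraries. Gnmt (chr17:46725664-46729168, minus strand), which uses up S-adenosylmethionine in the liver, had 821 CPM in GS-KO cells, against 169.9 CPM in control cells, a ratio of 4.83 (3.35 to 6.98). Thinned to 500 UMIs, it was seen in 29.3% of GS-KO and 7.07% of control cells, while B-cell barcodes had 0 and 7.29 CPM. Oat, the ornithine aminotransferase of the central zone, had 896 CPM in GS-KO cells, against 1504 CPM in control cells, a ratio of 0.596 (0.459 to 0.765). Maoa, which breaks down monoamines, had 707 and 844 CPM, and the ratio of 0.838 (0.618 to 1.12) included no difference. Both glutathione S-transferases, which attach glutathione to toxic compounds, were close between libraries. Gsta2 had a ratio of 1.24 (1.11 to 1.39) from 4911 and 3949.9 CPM, and Gstm3 one of 0.875 (0.771 to 0.989) from 3863 and 4417 CPM. Gsta2 and Gsta1 are near-identical, as are several Gstm genes, so how their reads were divided is uncertain.

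Across all genes with at least 50 UMIs in low-RNA hepatocytes of both libraries together, 31 of 1200 were at least 2-fold higher in GS-KO cells (2.58%) and 85 at least 2-fold lower (7.08%). The median log2 ratio over these genes was 0.01. The minimum counts both libraries together, and control low-RNA cells held 353170 UMIs against 79213 in GS-KO ones. A gene high in control therefore reached the minimum more readily than a gene high in GS-KO. The higher and lower shares thus do not weigh the directions evenly. In deep hepatocytes, where 8971 genes had enough UMIs, 818 (9.12%) were higher and 1549 (17.3%) lower. Deep GS-KO cells held 307853 UMIs against 15340598 in control, so a gene at the minimum there can have few or no GS-KO UMIs. The deep shares are therefore not comparable with those of low-RNA cells. The genes named next have the interval bound nearest to no difference lying farthest from it, 12 in each direction. Genes more abundant in barcodes of another lineage were left out. These were 22, among them Cd74 with 25.2 CPM in GS-KO and 408 CPM in control cells and Malat1 with 139 and 1628 CPM, for which 1 control cell held 31.3% of the control UMIs.

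First by this rule among the genes higher in GS-KO cells was Apcs, which encodes serum amyloid P component. It had 391 CPM in GS-KO cells, against 56.6 CPM in control cells, a ratio of 6.91 (3.82 to 12.8), and was seen in 13 of 41 and 20 of 184 cells. Ass1 (chr2:31470207-31520672, plus strand), the argininosuccinate synthase of the urea cycle, had 1035 CPM in GS-KO cells, against 260.5 CPM in control cells, a ratio of 3.97 (2.91 to 5.41). Fbp1, fructose-bisphosphatase of gluconeogenesis, had 303 CPM in GS-KO cells, against 87.8 CPM in control cells, a ratio of 3.45 (1.94 to 6.08). Gnmt stood second by the rule. Hamp, the iron hormone hepcidin, had a ratio of 2.27 (1.72 to 2.97), but only 7 GS-KO cells held it and 1 of them gave 39.3% of the UMIs. Ttpa, the vitamin E transfer protein, Cyp2c70, a bile acid hydroxylase in mice, and Eif4ebp3, a repressor of cap-dependent translation, had ratios of 2.79 (1.51 to 5.02), 2.13 (1.49 to 2.99) and 2.73 (1.46 to 4.99). The remaining 4 were Gsto1 at 2.75 (1.52 to 4.88), Map1lc3a at 2.11 (1.38 to 3.18), Rnaset2a at 2.73 (1.46 to 4.99) and Ftl1-ps1 at 2.68 (1.64 to 4.29). Ftl1-ps1 carries a pseudogene symbol, but the gene annotation used lists it as protein coding. Its reads may belong to Ftl1, and those of Rnaset2a to its near copy Rnaset2b. In deep hepatocytes 10 of the 12 lay on the same side, but only 6 were past 2-fold. Ass1 was among the 6, with 1475 against 80.2 CPM. The share of all genes on the same side in both sets is not given here, so this count has no background. Over the alternatives tried, the log2 ratio ranged from 1.76 to 3.22 for Apcs, 2.15 to 2.57 for Gnmt and 1.84 to 2.51 for Ass1. It was below 1 in at least 1 alternative for Fbp1 (lowest 0.54), Hamp (0.47), Eif4ebp3 (0.40), Cyp2c70 (0.37), Rnaset2a (0.86) and Map1lc3a (0.85).

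First among the genes lower in GS-KO cells was Glul, described above. Cyp2c67, a cytochrome P450, had 239.9 CPM in GS-KO cells, against 1135 CPM in control cells, a ratio of 0.211 (0.126 to 0.334). Car3, a cytosolic carbonic anhydrase, had 922 CPM in GS-KO cells, against 3466 CPM in control cells, a ratio of 0.266 (0.207 to 0.337), whereas deep cells had 1852 against 2656 CPM, a ratio of 0.697 (0.641 to 0.757). Gclc, the catalytic subunit of the enzyme that starts glutathione synthesis, had 530.2 CPM in GS-KO cells, against 1385 CPM in control cells, a ratio of 0.383 (0.272 to 0.525). Txnrd1, thioredoxin reductase, and C4bp, a complement inhibitor, had ratios of 0.388 (0.217 to 0.647) and 0.168 (0.0450 to 0.444). Rarres1 had a ratio of 0.271 (0.107 to 0.577). Ces3a, a carboxylesterase, had 0 UMIs in GS-KO and 55 in control cells, so it was at least 4.11-fold lower when 3 counts are set for the GS-KO library. The other 4 had 1 or 2 GS-KO UMIs each. Aox1, aldehyde oxidase, had a ratio of 0.162 (0.0192 to 0.614) and the ribosomal subunit gene Mrpl18 one of 0.168 (0.0199 to 0.638). Ube2s and Ube2c, ubiquitin enzymes of mitotic exit, each had 1 UMI in GS-KO and 51 in control cells, a ratio of 0.0874 (0.00217 to 0.509). In deep hepatocytes 9 of these 12 lay on the same side, but only 4 were past 2-fold, again without a background share over all genes. Over the alternatives tried, the log2 ratio of each of the 12 stayed below −1, nearest for Gclc, at −1.63 to −1.08.

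**Figure D3:**
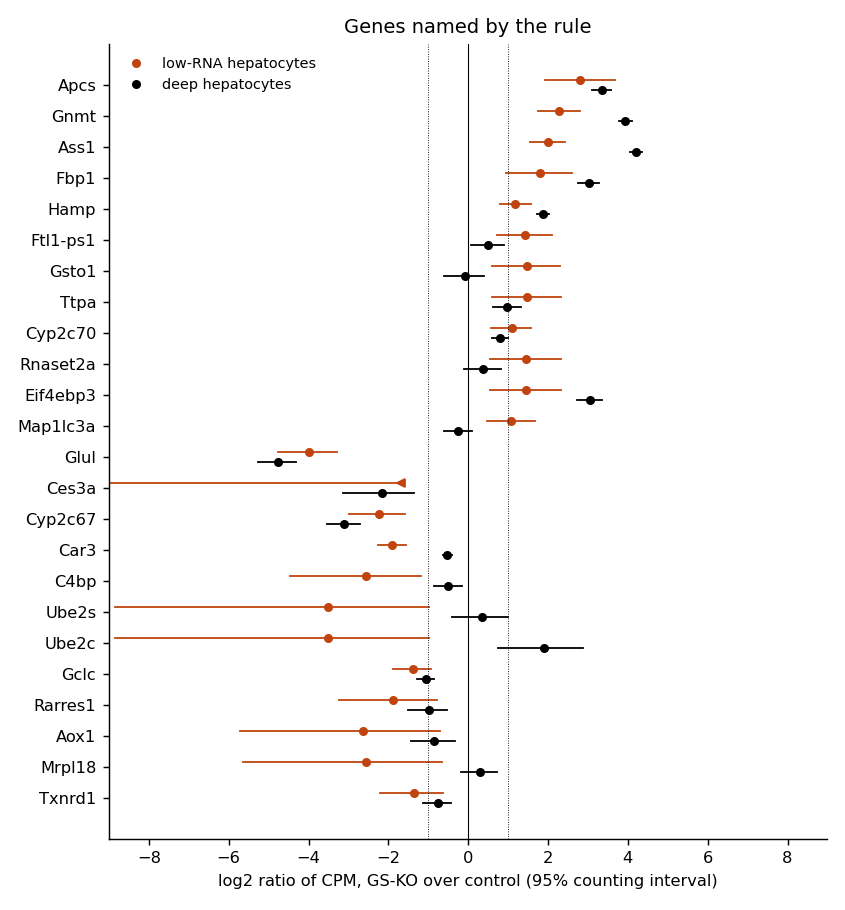
Points give the log2 ratio of CPM, GS-KO over control (horizontal axis), for the 12 genes higher and the 12 lower by the naming rule, in low-RNA (orange) and deep (black) hepatocytes, with bars for the 95% counting interval. Dotted lines mark 2-fold, a triangle marks the upper bound of a gene with 0 GS-KO UMIs, and bars stop at the left edge of the axis. Gsto1, Map1lc3a, Ube2s, Ube2c and Mrpl18 lie on the other side in deep cells.

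Summed by list, pericentral RNA (Glul included) was lower and periportal RNA higher in GS-KO cells, while 2 and 1 single members were past 2-fold. The Mup limit of the rule left out control cells only, taking control barcodes from 246 to 210 and leaving GS-KO ones at 41. Mup-rich control hepatocytes, at any depth, had 3976 CPM of the periportal and 11979 CPM of the pericentral list. The part of this limit in the zonal contrast was not tested. Of 22 pericentral genes, 13 had enough UMIs. Of these, 2 were at least 2-fold lower in GS-KO cells, against 7.08% of all genes, and 0 were higher, against 2.58%. Of the 13, 4 lay above 0, and the median log2 ratio was −0.41 against 0.01 over all genes. That median was −0.11 without the cells that held 3 or more UMIs of another lineage and −0.0065 with a hepatocyte share of at least 5%. The 2 lower genes were Glul and Lect2, a secreted β-catenin target, at 303 CPM in GS-KO cells, against 663 CPM in control cells. Glul is the gene that Cre targets, so apart from it only Lect2 was at least 2-fold lower. Cyp2a5, a P450 whose reads may be shared with its near copy Cyp2a4, had 5403 CPM in GS-KO cells, against 9078 CPM in control cells, and Cyp1a2 had 3383 and 4511 CPM. Cyp2e1 and Rgn, likewise of the central zone, had ratios of 1.16 (0.967 to 1.37) and 1.02 (0.877 to 1.17). Summed, the list had 17699 CPM in GS-KO and 26412 CPM in control cells, a ratio of 0.670 (0.633 to 0.709), against 0.355 (0.344 to 0.367) in deep cells. These sums and ratios include Glul, the targeted gene, so part of the lower level is Glul itself. Without Glul, the list had 15585 CPM in GS-KO and 13556 CPM in control cells that held no Glul UMI. In cells with at least 1 Glul UMI it had 21948 CPM in GS-KO and 24225 CPM in control, a split chosen after seeing the data. Over 6 other choices of cells the ratio of sums ranged from 0.624 to 0.851.

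Of 20 periportal genes, only Ass1 and Asl had enough UMIs in low-RNA hepatocytes, and Asl had a ratio of 1.70 (0.978 to 2.86). The summed list had 2310.2 CPM in GS-KO and 733 CPM in control cells, a ratio of 3.15 (2.59 to 3.82), against 9.07 (8.51 to 9.65) in deep cells. A single cell gave 25.7% of the GS-KO periportal UMIs, and over the same 6 choices of cells the ratio ranged from 2.78 to 3.89. Pck1, which starts gluconeogenesis from oxaloacetate, had 32 UMIs in 7 GS-KO cells and 13 UMIs in 11 control cells, with 40.6% of its GS-KO counts from a single cell. Cps1, the entry enzyme of the urea cycle, had 0 UMIs in GS-KO and 19 in control low-RNA cells, but 104 against 4.37 CPM in deep cells. Of 8 urea cycle genes 4 had enough UMIs, of which Ass1 was past 2-fold, and of 11 gluconeogenesis genes 3 did, of which Fbp1 was.

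The other lists are read against the 2.58% of all genes past 2-fold higher and the 7.08% past 2-fold lower. Of 19 acute phase genes 12 had enough UMIs, and Apcs, Hamp and Itih4 were at least 2-fold higher and 0 lower in GS-KO cells, with a median log2 ratio of 0.26, which was −0.053 with under 3000 UMIs per cell. Of 22 glutathione S-transferase genes 18 had enough, Gsto1 was past 2-fold, and the median was 0.09. The summed level of 50143 against 55681 CPM was led by Gstm1 with 21411 and 24560.4 CPM. Of 31 cytochrome P450 genes 15 had enough, Cyp2c70 was past 2-fold higher and Cyp2c67 past 2-fold lower, with a median of −0.19. None of the 12 fatty acid oxidation genes and none of the 10 amino acid breakdown genes with enough UMIs was past 2-fold. Of 8 heat shock genes with enough UMIs, Hsp90aa1 and Hspb1 were at least 2-fold lower, at ratios of 0.456 (0.295 to 0.679) and 0.416 (0.162 to 0.900). Of 10 genes of methionine and sulfur metabolism with enough UMIs, Gnmt was at least 2-fold higher and Gclc, Csad and Mat2a at least 2-fold lower.

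Genes of cell division other than Mki67 and Top2a, which the rule used, summed to 265 CPM in GS-KO and 883 CPM in control cells, a ratio of 0.300 (0.183 to 0.467), and 0.115 to 0.301 over the 6 other choices of cells. The GS-KO sum rested on 21 UMIs. Of 16, 3 had enough UMIs and all 3 (Stmn1, Tubb5 and Hmgb2) were at least 2-fold lower, against 7.08% of all genes. All 3 are also abundant in immune cells. Tubb5 and Hmgb2 were among the genes left out of the naming above as more abundant in another lineage. Cdk1, the kinase that starts mitosis, had 0 UMIs in GS-KO cells and 22 in control cells. Since the rule limits Mki67 and Top2a, it left out 4 control cells and 0 GS-KO cells at that step.

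**Figure D4:**
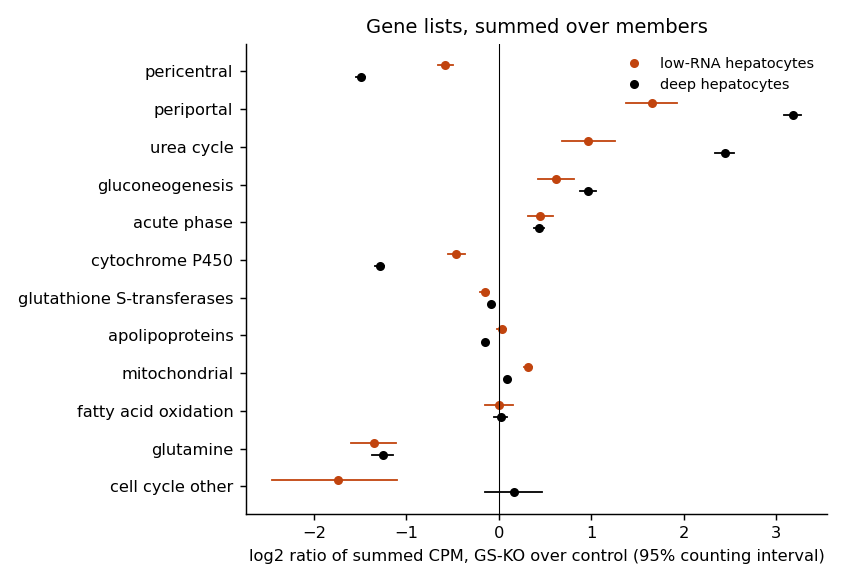
Points give the log2 ratio of the summed CPM of each gene list, GS-KO over control (horizontal axis), in low-RNA (orange) and deep (black) hepatocytes, with bars for the 95% counting interval. Periportal genes lie right of 0 and pericentral genes left of 0 in both sets, farther from 0 in deep cells, and the mitochondrial list is limited by the rule. The pericentral list includes Glul, the targeted gene.

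Within each library, low-RNA hepatocytes were set beside deep ones. Since depth is what the rule splits on, this is a description. At least 2-fold in the same direction in both libraries, 5 of 1095 genes (0.457%) were higher and 6 (0.548%) lower in low-RNA cells. Within 1 library, 21 (1.92%) and 57 (5.21%) genes were higher and lower in GS-KO, and 733 (8.15%) and 1040 (11.6%) of 8993 in control. The shares of the libraries are not comparable, since deep control cells held far more UMIs than the other sets.

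Of the 5 higher genes, a pair overlap in the genome. Gm42418 (chr17:39846958-39848788, plus strand) overlaps AY036118 (chr17:39847113-39848035, minus strand) in a stretch that resembles ribosomal RNA. Gm42418 had 23367 CPM in low-RNA against 10356 CPM in deep GS-KO cells, and 40977 against 7790.4 CPM in control cells. AY036118 had ratios of 2.49 (1.69 to 3.62) and 11.8 (10.6 to 13.2), and Lars2, a mitochondrial leucyl-tRNA synthetase, 2.59 (1.86 to 3.59) and 5.15 (4.61 to 5.75). Whether reads of the overlapping pair can be told apart by strand is not given in the sources used here. Tmsb4x, which encodes the actin-binding thymosin β4, had 2424 against 182 CPM in GS-KO and 1532 against 195 CPM in control cells, with 29.7% of the GS-KO low-RNA counts from a single cell, whereas B-cell barcodes had 7199 and 10842 CPM. Hpgd, which inactivates prostaglandins, had ratios of 2.06 (1.24 to 3.34) and 2.21 (1.65 to 2.90).

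Markers of other cells also varied with depth. Over the steps that start at 500, 1000, 2000, 5000 and 10000 UMIs per cell, Tmsb4x had 5991, 3521, 1286, 372 and 139 CPM in GS-KO and 3158, 1944, 1075, 541 and 186 CPM in control. The macrophage list had 713, 899.9, 729, 17.7 and 23.9 CPM in GS-KO and 2407, 1246, 808, 295 and 199 CPM in control over the same steps. Gm42418 had 40936, 21089, 21975, 11785 and 10035 CPM in GS-KO and 65076, 51209.6, 32469, 27248 and 7273 CPM in control. The part of RNA from other cells in these differences was not tested. Without the cells that held 3 or more UMIs of another lineage, which left 33 and 129 low-RNA and 14 and 84 deep cells, 0 genes were higher and 1 was lower.

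The 6 lower genes were mostly secreted proteins and a nuclear RNA. Cp, the copper carrier ceruloplasmin, had ratios of low-RNA over deep cells of 0.345 (0.207 to 0.546) in GS-KO and 0.380 (0.290 to 0.489) in control. Itih2, an inter-alpha-trypsin inhibitor heavy chain, had 0.364 (0.129 to 0.837) and 0.379 (0.249 to 0.552), and Fn1, plasma fibronectin, 0.480 (0.231 to 0.902) and 0.415 (0.275 to 0.601). Prlr, the prolactin receptor, had 0.313 (0.0983 to 0.771) and 0.356 (0.189 to 0.610). Apoa4, an apolipoprotein, had 0.121 (0.0481 to 0.253) and 0.434 (0.159 to 0.949). Neat1, a nuclear-retained RNA, had 0.120 (0.0142 to 0.450) and 0.434 (0.329 to 0.562), on 2 UMIs in GS-KO low-RNA cells.

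**Figure D5:**
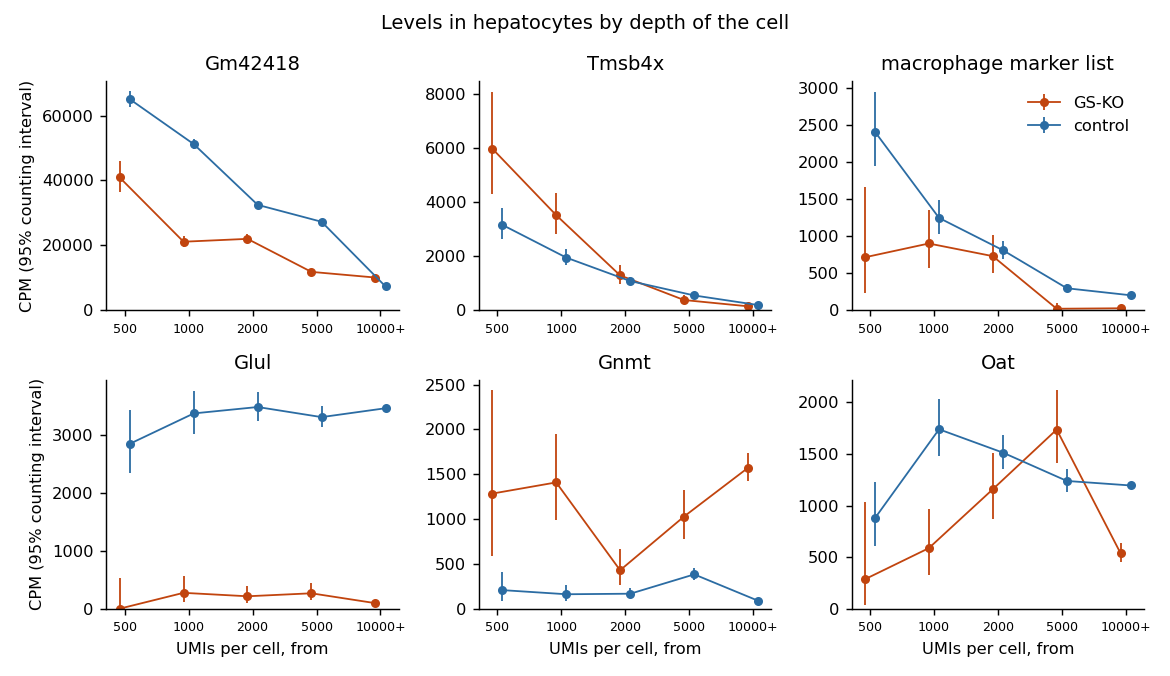
Levels in CPM (vertical axis, from 0) of Gm42418, Tmsb4x, the macrophage marker list, Glul, Gnmt and Oat in hepatocytes grouped by UMIs per cell (horizontal axis, the lowest UMI count of each step), with 95% counting intervals, for GS-KO (orange) and control (blue). In the 3 panels of the upper row both libraries are lower in the deepest than in the shallowest step, whereas Glul in control cells stays between 2847 and 3482 CPM.

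To show the start regions of genes that differed between the libraries, the promoters of Gnmt and Ass1 (higher in GS-KO) and of Glul and Cyp2a5 (lower) are given as RefSeq has them on GRCm38.p6, from 250 bases before to 50 after the start. Searched on both strands were ATCAAAG or TTCAAAG, the letters bound by TCF/LEF factors, CAAAGTCCA for HNF4, and TATAAA, the TATA box. Capitals mark a match.
Gnmt (chr17:46729116-46729415, minus strand): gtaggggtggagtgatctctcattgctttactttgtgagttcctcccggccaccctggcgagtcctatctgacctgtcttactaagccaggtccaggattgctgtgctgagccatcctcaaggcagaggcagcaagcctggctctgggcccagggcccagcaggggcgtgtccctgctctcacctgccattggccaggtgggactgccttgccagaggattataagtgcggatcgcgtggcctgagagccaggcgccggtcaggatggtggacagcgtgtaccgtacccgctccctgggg
Ass1 (chr2:31470020-31470319, plus strand): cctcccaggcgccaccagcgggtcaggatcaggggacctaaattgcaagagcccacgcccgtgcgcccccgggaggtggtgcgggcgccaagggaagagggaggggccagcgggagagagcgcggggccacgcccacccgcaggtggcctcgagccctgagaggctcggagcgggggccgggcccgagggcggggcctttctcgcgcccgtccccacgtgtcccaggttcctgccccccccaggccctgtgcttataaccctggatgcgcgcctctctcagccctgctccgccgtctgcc
Glul (chr1:153899679-153899978, plus strand): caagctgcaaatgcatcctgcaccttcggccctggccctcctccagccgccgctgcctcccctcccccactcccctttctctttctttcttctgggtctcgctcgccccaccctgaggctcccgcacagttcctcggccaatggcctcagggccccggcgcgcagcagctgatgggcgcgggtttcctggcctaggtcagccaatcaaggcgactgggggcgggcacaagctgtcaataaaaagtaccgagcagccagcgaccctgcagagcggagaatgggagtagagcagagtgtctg
Cyp2a5 (chr7:26835089-26835388, plus strand): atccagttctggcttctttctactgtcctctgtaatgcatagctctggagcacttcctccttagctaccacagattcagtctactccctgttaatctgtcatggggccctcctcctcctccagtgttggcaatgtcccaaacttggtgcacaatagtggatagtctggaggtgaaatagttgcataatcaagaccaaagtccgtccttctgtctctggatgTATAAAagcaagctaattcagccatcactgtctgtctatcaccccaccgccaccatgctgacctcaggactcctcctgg
Of the 3 motifs, only TATAAA was found, in the Cyp2a5 window, 29 to 24 bases before the start. Over 32817 RefSeq promoters of the same length, 8.65% held a TCF/LEF match, 0.475% the HNF4 letters and 13.6% the TATA box. No match says only that these letters are not in these windows.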

How the data were processed

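Per the labels' protocols, droplet 3′ libraries (chemistry 3PrimeV2) were made from 1 mouse per group and sequenced on a NextSeq instrument. The labels also name single-nucleus RNA-seq in 1 place, and which applies was not settled. Per the submitters' processing notes the authors used Cell Ranger with the mm10 genome, and the matrix headers give software version 3.1.0. The authors deposited 1 matrix per library of unnormalised UMI counts for 32285 genes, in which no barcode had under 500 UMIs. Whether all barcodes held cells was not tested.

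Cells were chosen with the limits given above, and doublets called by Scrublet (scanpy 1.11.5) were kept. Counts were summed per library and cell set as CPM, with exact Poisson intervals, conditional binomial intervals for ratios, and exact binomial intervals for shares. Log2 ratios used a prior count of 0.5, and genes needed 50 UMIs over the sets compared. Barcodes of other lineages had 3 or more UMIs of that list and a hepatocyte share under 2%. For shares of cells with a gene, every cell was thinned to 500 UMIs (seed 1). Named genes were the 12 each way whose nearer interval bound lay farthest from 1, without mitochondrial, ribosomal, haemoglobin, immunoglobulin, sex-linked and rule genes or those over 2-fold higher in another lineage, then up to 8 each way between low-RNA and deep cells, Glul, the 5 markers and members of lists. The members and lists were chosen with earlier results of these data known. Gene positions came from GENCODE M21, which held 32158 identifiers. The interval code was tested on simulated data. Python 3.11.15, numpy 2.4.6, scipy 1.17.1 and pandas 2.3.3 were used.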

Additional observations from a re-analysis of the deposited data

Results flagged for a closer look

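For 13 results, 6 genes and 7 gene lists, the GS-KO library lay on one side of the control library in low-RNA hepatocytes and on the other in deep hepatocytes. With 1 library per group the difference between the sets was not tested. For 2 of the 6 genes, Ube2c and Gstm3, the counting intervals of both sets excluded no difference. For Gstm3 the log2 ratio in low-RNA cells was 0.14 with a hepatocyte share of at least 5%, the same side as in deep cells.

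Ube2c had a log2 ratio of −3.30 in low-RNA and 1.89 in deep hepatocytes, and Ube2s −3.30 and 0.34. Each had 1 UMI in GS-KO low-RNA cells. Gstm3 had −0.19 and 0.19, Gsto1 1.44 and −0.08, Map1lc3a 1.07 and −0.26, and Mrpl18 −2.47 and 0.30. Among the lists, the median log2 ratios in low-RNA and deep cells were −1.82 and 0.44 for cell division genes, −0.19 and 0.19 for the 5 markers, −0.19 and 0.18 for glutamine metabolism, −0.10 and 0.39 for methionine and sulfur metabolism, -0.041 and 0.34 for amino acid breakdown, 0.095 and −0.0022 for glutathione S-transferases, and −0.00097 and 1.14 for lipid and sterol synthesis. These medians rested on 3 to 18 genes in low-RNA cells, and the sets also differed in how many members had enough UMIs.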

How the results depend on the processing

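Over 13 alternatives listed at the outset and 1 added after seeing the data, 47 values that answer a comparison stayed within their limits of change and 32 moved. Apart from the log2 ratio of Glul, which ranged from −4.02 to −3.41, these are shares and counts of genes and have no direction. Without cells holding 3 or more UMIs of another lineage, the control share was 3.94%, 48 genes were lower in GS-KO (39 of them among the 85) and 30 higher (14 among the 31), and 0 and 1 genes were higher and lower in low-RNA than in deep cells. With a hepatocyte share of at least 5%, the shares were 3.63% in GS-KO and 3.21% in control, 45 genes were lower in GS-KO (27 among the 85) and 27 higher (7 among the 31), and 2 were higher in low-RNA cells. With at most 10% mitochondrial UMIs, 30 genes were higher in GS-KO (15 among the 31), and 1 and 0 genes were higher and lower in low-RNA cells. With under 3000 UMIs the control share was 4.40% and 16 genes were higher in GS-KO (8 among the 31), and with at least 1000 UMIs 4.19% and 20. Taken as a mean over cells, 2 genes were lower in low-RNA cells. Thinned to 500 UMIs, 11 genes were higher and 24 lower in GS-KO, of which 3 and 9 were among the 31 and 85, and 2 and 0 were higher and lower in low-RNA cells. With minima of 20, 200 and 1 UMIs, 133, 3 and 1577 genes were higher in GS-KO, 335, 11 and 4717 lower, 13, 2 and 408 higher in low-RNA cells and 14, 2 and 1028 lower. With a total that leaves out Gm42418, AY036118 and Lars2 (added), 2 were higher in low-RNA cells. Apart from these constructions, the cause was not tested. Of the other values, 454 stayed and 80 moved. The medians of gene lists kept their sign in 10 of 16 lists with a hepatocyte share of at least 5%, in 13 of 16 with under 3000 UMIs, in 12 of 14 when thinned, in 19 of 21 as a mean over cells, in 17 of 19 with a total without mitochondrial, ribosomal, haemoglobin and rule genes, in 18 of 20 with at most 10% mitochondrial UMIs and in 17 of 18 without cells holding another lineage's UMIs, and in every list under the other 5 settings that gave medians. No paired analysis was possible because each group has 1 library, and for the same reason no replicate could be left out.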

Other observations

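Control low-RNA hepatocytes without a Glul UMI were set beside those with at least 1, a split chosen after seeing the data. The 35 control cells without Glul had 1918 CPM of the periportal list, against 584 CPM in the 149 with Glul. Ass1 had 884 against 182 CPM and Gnmt 404 against 140.3 CPM. Oat, of the central zone, ran the other way, with 429 against 1639 CPM, as did the pericentral list without Glul, with 13556 against 24225 CPM. Among GS-KO cells, the 29 without Glul had 2825 CPM of the periportal list, against 1099.5 CPM in the 12 with Glul. Cells without Glul were shallower, with median depths of 804 against 1767 UMIs in control and 1460 against 1602.5 in GS-KO, and the part of depth in these differences was not tested.

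Mup-rich hepatocytes, which the rule leaves out, numbered 0 in GS-KO and 59 in control at any depth. Hepatocyte barcodes over the mitochondrial limit numbered 52 and 140, with 22.2 CPM of Glul in GS-KO and 2653 CPM in control. Mitochondrial genes took 678567 CPM of these GS-KO and 277937 CPM of these control barcodes, so CPM over all UMIs lowers other genes more in GS-KO. The GS-KO barcodes held 224977 UMIs in all, against 2817865 in control.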
